A study of Mus musculus with 64 samples.

Results

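The nuclear-encoded subunits of complexes III and IV, cytochrome c and ATP synthase were examined in mouse liver across a day, with and without knockdown of Acsf3. Members were the rows of the gene table whose symbol begins with Uqcr, Cox4i, Cox followed by a digit from 4 to 8 and a letter from a to c, or Atp5, together with Cyc1 and Cycs, leaving out symbols that hold -ps. The rule reads symbols and no measured value, but it was set with earlier results of these data known. It gave 47 of 55487 rows, of which 9 belong to complex III, 1 is cytochrome c (Cycs), 19 belong to complex IV and 18 to ATP synthase. Of these, 37 had enough counts to be tested, among 10097 tested genes.

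The study injected male C57BL/6J mice with an AAV8 vector, a virus that mainly transduces the liver, carrying a hairpin RNA against Acsf3 (sh-Acsf3) or its control (sh-Ctl). All mice ate ad libitum and livers were taken 4 weeks after injection at ZT0, ZT3, ZT6, ZT9, ZT12, ZT15, ZT18 and ZT21 (zeitgeber time, counted in hours from lights on). Each treatment and time has 4 replicates, so that 32 libraries of sh-Ctl and 32 of sh-Acsf3 were compared. The labels name no other allele and do not say which promoter drives the hairpin, and the title describes the study as one of ACSF3, lysine malonylation and daily liver metabolism.

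In the inner mitochondrial membrane, complex III takes electrons from ubiquinol and passes them to cytochrome c, and complex IV passes them from cytochrome c to oxygen. Both pump protons, and ATP synthase uses the proton flow to make ATP. Complexes III and IV and the membrane part of ATP synthase also hold subunits made from mitochondrial DNA, so nuclear and mitochondrial transcripts have to be matched. Several complex IV and ATP synthase subunits exist as isoforms that are typical of liver, muscle, lung or testis. ACSF3, the target of the hairpin, makes malonyl-CoA from malonate inside mitochondria.

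The promoters of such genes are known for sites of NRF1 and of ETS family factors such as GABP, and these letters were searched for because the members are often treated as a set under shared control. RefSeq promoters (GRCm38.p6, 250 bases before to 50 after the start) were matched by symbol for 29 of the 37 tested members. The NRF1 core GCATGCGC, read on both strands, stood in 20.7% of these 29 and in 3.0% of the promoters of 27025 genes. The ETS letters CCGGAAG stood in 37.9% of members and in 9.9% of all genes, the ERR letters AAGGTCA in 13.8% and 5.4%, the YY1 letters AAGATGG in 13.8% and 7.3%, and the E-box CACGTG in 13.8% and 8.1%. A match of letters is a description and not a bound site. Of the 8 members lower in sh-Acsf3, 5 have a promoter in the table, and Atp5k is the one of these that holds any of the letters (NRF1, ETS and ERR). Of the 12 rhythmic in either treatment, 9 have a promoter, and the NRF1, ETS and E-box letters stand in 2 each, those of YY1 in 1 and those of ERR in 0. In the stretches that follow, all on the minus strand and written 5′ to 3′, capitals mark the letters found. They show what such letters look like in members described further on and are not typical of the lower or rhythmic members: Cycs and Uqcrh for their daily rhythm in sh-Ctl, Atp5g1 for its rhythm in both treatments, Atp5k for its lower level in sh-Acsf3 and Atp5g3 as the ATP synthase member with the most counts.
Cycs, NRF1 core, chr6:50566592-50566659: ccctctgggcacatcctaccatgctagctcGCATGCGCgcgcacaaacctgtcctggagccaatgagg
Uqcrh, ETS letters, chr4:116075071-116075090: gtatgccgcaCTTCCGGcca
Atp5g1, E-box, chr11:96075656-96075685: ggactccgaaCACGTGggtgggggagctga
Atp5k, NRF1 core on both strands, which overlap, chr5:108434430-108434459: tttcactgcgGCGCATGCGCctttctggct
Atp5g3, ERR letters, chr2:73911341-73911428: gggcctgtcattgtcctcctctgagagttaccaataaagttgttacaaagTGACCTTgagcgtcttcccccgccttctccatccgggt

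Libraries held 1.48 to 6.06 M UMIs (M, mega; unique molecular identifiers, each a counted transcript end) in sh-Ctl, with a median of 3.13, and 0.839 to 9.35 M UMIs in sh-Acsf3, with a median of 2.03. The 47 members took 1.08% to 1.42% of the UMIs of a library. Acsf3 itself fell from 11.3 ± 2.41 to 2.56 ± 1.68 CPM (counts per M UMIs of the scaled library total; SD within times, n = 32 each), which leaves 22.7%, with an edgeR adjusted p of 1.81e-21. All 10 hepatocyte markers were found, at a summed 78090 to 152900 CPM per library. In 8 libraries, 2 of sh-Ctl and 6 of sh-Acsf3, exocrine pancreas markers summed to more than 100 CPM. The acute-phase gene Saa1 lay above 1000 CPM in 4 libraries, all of sh-Ctl: the second replicates of ZT12, ZT15 and ZT18 and the first of ZT9.

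The liver forms of the subunits made up nearly all member counts. For subunit 4 of complex IV, which is the main regulatory nuclear subunit, the general form Cox4i1 had 70633 UMIs over all libraries and the lung and hypoxia form Cox4i2 had 19. The heart and muscle forms were scarce as well. Cox6a2 had 25 UMIs against 103194 for the liver form Cox6a1, Cox7a1 had 283 against 29372 for Cox7a2, and Cox8b had 7 against 33109 for Cox8a. Among the testis forms, Cox6b2 had 40 UMIs against 74022 for Cox6b1, while Cox7b2 and Cox8c were at 0. With 3 counts as the floor over 197310790 UMIs, a count of 0 allows a level of up to 0.0152 CPM, counting error only. Of the 3 genes for the same c-ring protein of ATP synthase, Atp5g3 had 205611 UMIs, Atp5g1 had 43021 and Atp5g2 had 273. Cox6c2, which GENCODE lists as a processed pseudogene, had 209 UMIs and a second Atp5o row had none. These 10 rows were below the count filter and were not tested.

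The first comparison set the knockdown against its control, with the 8 times weighted equally. Of the 37 tested members 8 were lower in sh-Acsf3 and 0 were higher, by edgeR's quasi-likelihood test with Benjamini-Hochberg adjustment over all genes at a threshold of 0.05. The falls were small, from 6.8% for Uqcrc2 to 13.9% for Cox7a2l. Among all tested genes 6.22% were called lower and 8.26% higher. The difference was below 0 for 33 of 37 members, with a median of -0.08 on the log2 scale, against 52.7% of all genes and a median of -0.01. With library totals alone as the scale, 24 of 37 members were below 0, the median was -0.03 while that of all genes was 0.05, and 1 member was lower (Cox7a2l) and 1 higher (Cox4i1), with 250 genes lower and 1110 higher in place of 628 and 834. Without the libraries numbered replicate 3, no member was called, and 32 of 37 lay below 0 with a median of -0.07. The genes called lower among all tested then numbered 265 (2.6%) in place of 628 (6.22%). In a bulk sample, fewer cells of a type and less RNA per cell cannot be told apart.

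**Figure D1:**
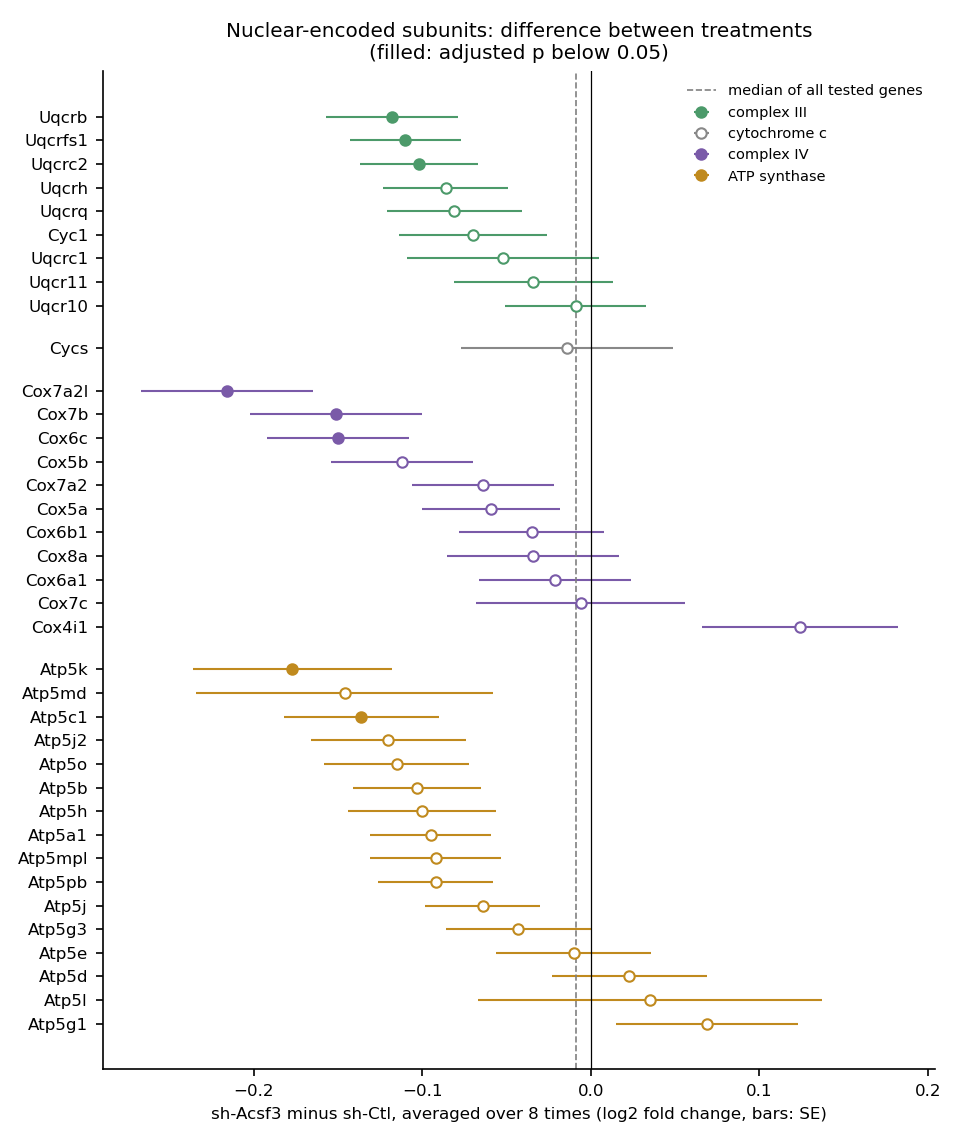
Difference between sh-Acsf3 and sh-Ctl for each of the 37 tested members, averaged over 8 times, as log2 fold change with its standard error, grouped by complex. Filled points mark the 8 members with an adjusted p below 0.05, all left of 0, and the dashed line is the median of all tested genes.

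In complex III, 3 of 9 members were lower and all 9 lay below 0, with a median of -0.08. The Rieske iron-sulfur protein Uqcrfs1, which carries electrons towards cytochrome c1, had 261 to 391 CPM in sh-Ctl (median 324) and 246 to 340 in sh-Acsf3 (median 304). Uqcrb, a small subunit near the ubiquinone pocket, had 120.3 to 192 CPM (median 163) and 117 to 182 (median 149.9). The core protein Uqcrc2 had 234 to 326 CPM (median 280.3) and 223 to 322 (median 263). The ranges of the treatments overlapped for each gene. The differences were -0.11 ± 0.03 for Uqcrfs1 (log2, SE; adjusted p = 0.0145), -0.12 ± 0.04 for Uqcrb (adjusted p = 0.0299) and -0.10 ± 0.03 for Uqcrc2 (adjusted p = 0.0352). The sh-Acsf3 mean was the lower at 7 of 8 times for Uqcrfs1 and Uqcrb and at 6 for Uqcrc2. Uqcrq, a small structural subunit with the most counts in this complex, had a mean of 681 ± 62.1 CPM under sh-Ctl and 644 ± 69.5 under sh-Acsf3 (SD within times, n = 32 each), a difference of -0.08 ± 0.04 with an adjusted p of 0.183. The haem protein Cyc1 and the hinge protein Uqcrh also missed the threshold, at -0.07 (adjusted p = 0.321) and -0.09 (adjusted p = 0.107).

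Cytochrome c, the carrier between the complexes, is the single member of its group. Cycs had 23.9 to 52.5 CPM in sh-Ctl (median 35.9) and 23.8 to 54.5 in sh-Acsf3 (median 35.2). These ranges nearly coincided, and the difference was -0.01 ± 0.06 with a 95% interval of -0.14 to 0.11 and an adjusted p of 0.939.

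In complex IV, 3 of 11 tested members were lower and 10 lay below 0, with a median of -0.06. Cox7a2l is a relative of the Cox7a subunits that joins complex III to complex IV in supercomplexes, and C57BL/6 strains carry a shortened form of the protein. It had 32.2 to 57.8 CPM in sh-Ctl (median 48.1) and 28.3 to 48.0 in sh-Acsf3 (median 40.8), with the sh-Acsf3 mean lower at 8 of 8 times. Its difference was -0.22 ± 0.05 (adjusted p = 0.00159). Cox6c and Cox7b are small membrane subunits of the enzyme itself. Cox6c had 215 to 354 CPM in sh-Ctl (median 286) and 203 to 318 in sh-Acsf3 (median 252), a difference of -0.15 ± 0.04 (adjusted p = 0.00842). Cox7b had 108 to 177 CPM (median 149) and 74.9 to 176 (median 135), a difference of -0.15 ± 0.05 (adjusted p = 0.0331). Ranges overlapped for all of these, and Cox6c and Cox7b were each lower at 7 of 8 times. Cox5a, which holds a regulatory site for thyroid hormone and has the most counts in this complex, had 908 ± 85.0 CPM under sh-Ctl and 872 ± 100.3 under sh-Acsf3, a difference of -0.06 ± 0.04 with an adjusted p of 0.377.

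Cox4i1 was the complex IV member above 0. It had 244 to 536 CPM in sh-Ctl (median 352) and 287 to 574 in sh-Acsf3 (median 382), a difference of 0.12 ± 0.06 with an adjusted p of 0.153. With library totals alone as the scale the difference was 0.18 and the adjusted p 0.02075. With the log2 UMI total as a covariate, an alternative chosen after seeing the data, it was 0.06 with an adjusted p of 0.461. Its gene on chromosome 8 (120668222 to 120674207, plus strand, GRCm38) overlaps Gm20388 on the same strand and Emc8 on the other, so reads of these genes may not be separable.

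In ATP synthase, 2 of 16 tested members were lower and 13 lay below 0, with a median of -0.09. Atp5c1 encodes the gamma subunit, the rotating stalk of the enzyme. It had 402 to 681 CPM in sh-Ctl (median 546) and 338 to 629.6 in sh-Acsf3 (median 499), a difference of -0.14 ± 0.05 (adjusted p = 0.0363), and was lower at 8 of 8 times. Atp5k encodes subunit e, which takes part in pairing ATP synthases into dimers. It had 148 to 279 CPM (median 209.6) and 129 to 275 (median 172), a difference of -0.18 ± 0.06 (adjusted p = 0.0312), and was lower at 7 of 8 times. Both ranges overlapped between the treatments.

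Further ATP synthase members lay just outside the threshold. The catalytic beta subunit Atp5b stood at -0.10 ± 0.04 (adjusted p = 0.0519), the stalk protein Atp5o at -0.12 ± 0.04 (adjusted p = 0.0599), Atp5pb at -0.09 ± 0.03 (adjusted p = 0.0608), the alpha subunit Atp5a1 at -0.10 ± 0.04 (adjusted p = 0.0642) and Atp5j2 at -0.12 ± 0.05 (adjusted p = 0.067). In complex IV, Cox5b stood at -0.11 ± 0.04 with an adjusted p of 0.0636. Atp5g3 had 1065 ± 110.0 CPM under sh-Ctl and 1034 ± 128 under sh-Acsf3, a difference of -0.04 ± 0.04 with an adjusted p of 0.582. The members above 0 were Atp5g1 at 0.07 ± 0.05, Atp5l at 0.04 ± 0.10 and the delta subunit Atp5d at 0.02 ± 0.05, with adjusted p of 0.452, 0.891 and 0.826.

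**Figure D2:**
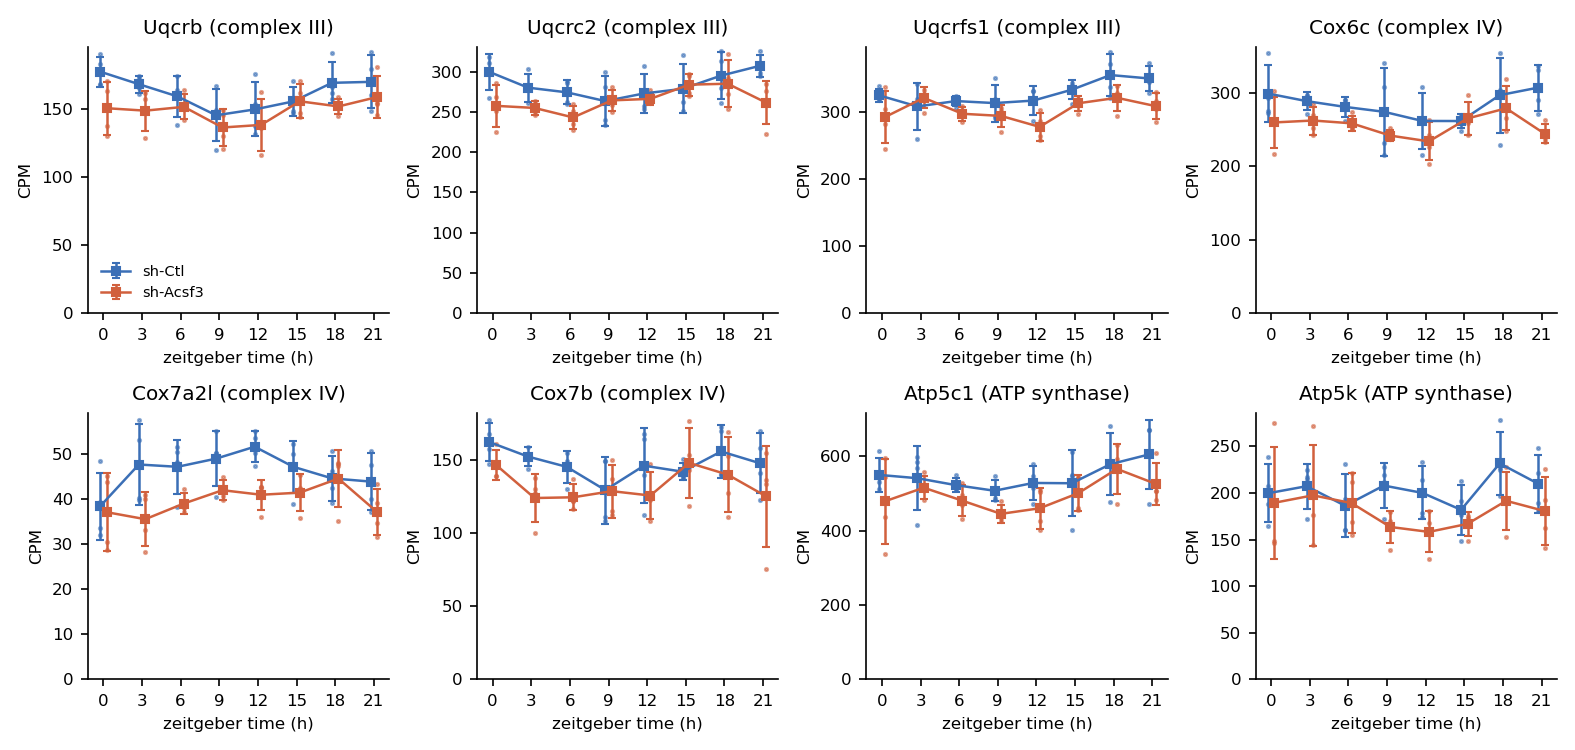
CPM of the 8 members lower in sh-Acsf3 against zeitgeber time in hours, with sh-Ctl in blue and sh-Acsf3 in orange. Small points are libraries, squares and bars the mean and SD of 4 replicates. The sh-Acsf3 means lie lower at 6 to 8 of the 8 times, and over all times the ranges of the libraries overlap for each gene.

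By GENCODE M21 (GRCm38), the 8 genes lie at chr17:83501918-83517330 (Cox7a2l, minus strand), chr15:35925886-35938246 (Cox6c, minus), chrX:106015700-106022450 (Cox7b, plus), chr13:30540308-30545362 (Uqcrfs1, minus), chr13:66900617-66905378 (Uqcrb, minus), chr7:120635176-120659524 (Uqcrc2, plus), chr2:10056016-10080510 (Atp5c1, minus) and chr5:108433244-108434448 (Atp5k, minus). Each is annotated as protein-coding.

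The calls of these genes were not equally firm. Cox6c, Cox7a2l and Uqcrfs1 kept their call when any single one of the 64 libraries was left out. Uqcrb lost it without 5 libraries: sh-Ctl ZT9 replicate 2 and ZT12 replicate 1, and sh-Acsf3 ZT9 replicate 4, ZT12 replicate 1 and ZT15 replicate 3 (highest adjusted p 0.0544). Cox7b lost it without 8: sh-Ctl ZT9 replicate 3, ZT12 replicate 1, ZT18 replicates 1 and 3 and ZT21 replicate 1, and sh-Acsf3 ZT9 replicate 4, ZT18 replicate 3 and ZT21 replicate 3 (highest 0.06002). Atp5k lost it without 7: sh-Ctl ZT6 replicate 3 and ZT21 replicate 4, and sh-Acsf3 ZT0 replicate 4, ZT3 replicate 1, ZT12 replicate 1, ZT15 replicate 3 and ZT21 replicate 4 (highest 0.0566). Uqcrc2 lost it without any of 10 libraries: sh-Ctl ZT0 replicate 1, ZT9 replicate 3, ZT12 replicate 1, ZT15 replicate 4 and ZT18 replicate 3, and sh-Acsf3 ZT3 replicate 1, ZT9 replicate 4, ZT15 replicate 3, ZT18 replicate 3 and ZT21 replicate 2 (highest 0.0677). Atp5c1 lost it without any of 14 libraries: sh-Ctl replicate 4 at ZT3, ZT15, ZT18 and ZT21 and ZT9 replicate 3, and sh-Acsf3 replicate 4 at ZT0, ZT6, ZT9 and ZT21, replicate 1 at ZT3, ZT12 and ZT18, and ZT15 replicates 2 and 3 (highest 0.0619). Without all libraries of replicate 3 or of replicate 4, Cox7a2l stood at -0.17 (adjusted p = 0.0893) and -0.15 (adjusted p = 0.0965). Cox6c then stood at -0.09 (adjusted p = 0.314) and -0.14 (adjusted p = 0.075), and Uqcrfs1 at -0.09 (adjusted p = 0.193) and -0.10 (adjusted p = 0.0991). Uqcrb was the one of the 8 that kept its call without replicate 4, but it lost it without replicate 1, 2 or 3. Atp5c1 and Uqcrc2 lost theirs without replicate 1, 2, 3 or 4. Of 17 alternatives other than leaving out a single library, the call held in 15 for Cox7a2l, 14 for Cox6c and 12 for Uqcrfs1. It held in 10 each for Cox7b and Atp5k, 9 for Uqcrb and 8 each for Atp5c1 and Uqcrc2. On library totals alone Cox6c and Uqcrfs1 also lost their call, and Uqcrfs1 did so without replicate 1 and without a filter on low counts.

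Libraries that stood apart moved the count in either direction. Without the 8 libraries with pancreas RNA 4 members were lower (Cox6c, Cox7a2l, Uqcrfs1 and Atp5k), and 31 of 37 lay below 0. Without the 4 libraries high in Saa1 15 members were lower, the 8 above and Uqcrh, Cox5b, Atp5a1, Atp5b, Atp5mpl, Atp5o and Atp5pb. Of all genes, 513 were lower without the pancreas-RNA libraries and 595 without those high in Saa1, against 628 with all libraries. Summed over all tested members, these 4 libraries had 12030 (ZT9), 10960 (ZT12), 12240 (ZT15) and 12140 CPM (ZT18), against means of 12580, 12190, 12330 and 13760 CPM for their groups. They lay below their group mean, which includes them, in each case. At ZT15, though, the library lay above replicates 1 (11240 CPM) and 3 (12190 CPM) of its group.

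Summed over its tested subunits, complex III went from 2685 ± 171 CPM in sh-Ctl to 2546 ± 186 in sh-Acsf3 (SD within times, n = 32 each), a change of -5.18%, and was lower at 7 of 8 times. ATP synthase went from 6735 ± 553 to 6411 ± 563 CPM, a change of -4.82%, and was lower at 8 of 8 times. Complex IV went from 3516 ± 261 to 3417 ± 308 CPM, a change of -2.81%, and was lower at 5 of 8 times. On library totals alone the changes were -1.68% for complex III, -1.36% for ATP synthase and 0.73% for complex IV, so the direction for complex IV turned with the scale.

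**Figure D3:**
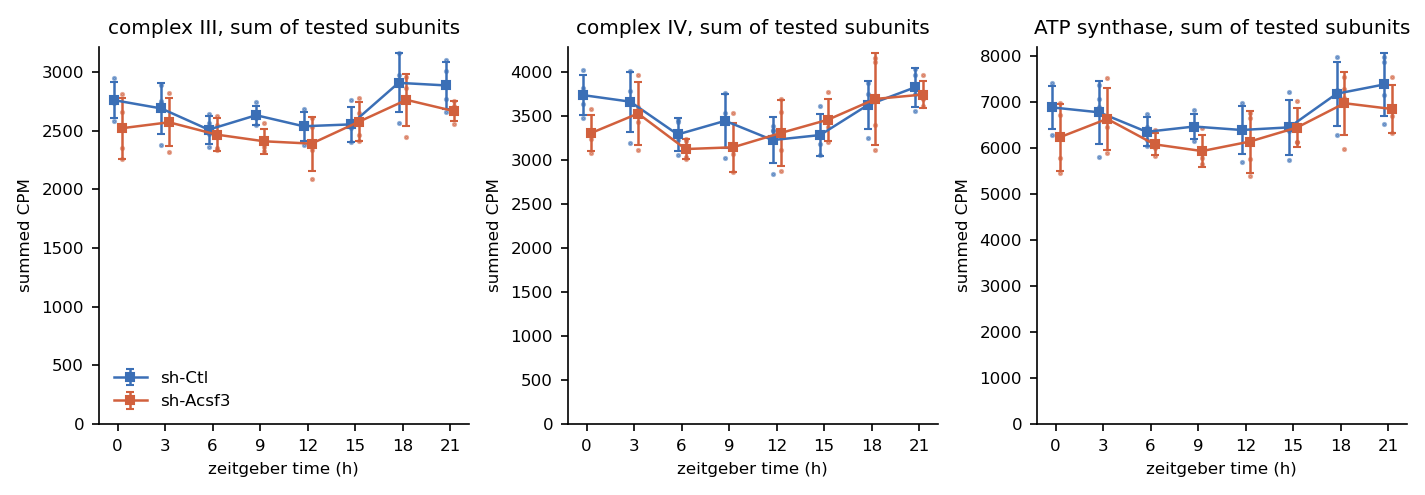
Summed CPM of the tested subunits of complex III (9), complex IV (11) and ATP synthase (16) against zeitgeber time in hours, with points for libraries and squares with bars for the mean and SD of 4 replicates. In sh-Ctl the sums are highest at ZT18 or ZT21, and the ranges of the treatments overlap at each time.

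Other genes of the respiratory chain, in lists that had been fixed with earlier results of these data known, gave the setting. Of 37 tested complex I subunits 13 were lower and 0 higher, with a median of -0.10, among them Ndufv1, the subunit that accepts electrons from NADH, at -0.21 ± 0.04 (adjusted p = 0.000175). Of 4 complex II subunits 3 were lower, including the flavoprotein Sdha at -0.15 ± 0.04 (adjusted p = 0.00316). None of 5 complex III assembly factors passed, and 4 of 28 for complex IV were lower, led by Slirp, which binds mitochondrial messenger RNA, at -0.27 ± 0.05 (adjusted p = 3.47e-05) and the haem insertion factor Surf1 at -0.24 ± 0.06 (adjusted p = 0.00157). None of 9 assembly and partner genes of ATP synthase and none of 15 tested regulators passed in either direction. The mitochondrially encoded partner mt-Cytb of complex III had 12010 ± 2461 CPM under sh-Ctl and 10620 ± 2295 under sh-Acsf3, with an adjusted p of 0.064, and mt-Co1 of complex IV had 522 ± 131 and 526 ± 154 CPM, with an adjusted p of 0.986. The other 4 mitochondrially encoded subunits of these complexes in the table were listed at 0.

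Markers of other liver cells moved with the treatment. Called higher under the knockdown were 11 of 14 tested markers for stellate cells and fibroblasts, 8 of 13 for macrophages and monocytes and 5 of 5 for lymphocytes. Among all tested genes 8.26% were called higher. Only these 5 of 15 listed lymphocyte markers had enough counts to be tested. Among them, Nkg7 had 0.738 CPM under sh-Ctl and 4.49 under sh-Acsf3, and Gzma 0.464 and 2.83. Genes this low in sh-Ctl could pass the count filter through sh-Acsf3, so the 5 of 5 is no support of its own. The same can hold for low markers of the other lists. The macrophage gene Marco, for one, had 0.937 CPM under sh-Ctl and 2.88 under sh-Acsf3. Summed levels of all listed markers per library ran from 177 to 356 CPM under sh-Ctl and 362 to 776 under sh-Acsf3 for stellate cells, 152 to 501 and 221 to 574 for macrophages, and 7.26 to 40.0 and 20.9 to 168 for lymphocytes. Of 10 hepatocyte markers 4 were lower, while the summed level had medians of 127000 and 128200 CPM. Their part in the differences of the members was not tested.

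The second comparison asked at which time of day the treatments differed. None of the 37 members passed at any single time. The share of all genes called in either direction was 0.515% at ZT0, 0.0693% at ZT3, 0.218% at ZT6, 0.357% at ZT9, 1.4% at ZT12, 0.0297% at ZT15, 0.168% at ZT18 and 0.317% at ZT21. At an unadjusted p under 0.05, 8 members were lower at ZT0, 2 at ZT3, 1 at ZT6, 2 at ZT9, 3 at ZT12, 0 at ZT15 and ZT18 and 3 at ZT21, while 2 were higher at ZT12 and 1 at ZT15. The share of all genes at this unadjusted threshold was not counted for single times. The shares above are at the adjusted threshold and cannot be set against these counts. The median difference of the members was lowest at ZT0 (-0.17), where 34 of 37 lay below 0, and was 0.03 at ZT15, where 17 did. A typical standard error at one time was 0.12, above most of the averaged differences.

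Single genes illustrate this spread. At ZT3, Cox7a2l had 39.9, 40.3, 57.8 and 53.1 CPM in sh-Ctl and 33.2, 40.9, 40.1 and 28.3 in sh-Acsf3. At ZT12 it had 50.4, 55.2, 47.5 and 53.8 against 42.5, 42.8, 42.8 and 36.0, so the groups did not overlap at ZT12 and did at ZT3. The adjusted p was 0.481 at ZT3 and 0.276 at ZT12. At ZT21, Cox6c differed by -0.33 ± 0.12 with an unadjusted p of 0.00759 and an adjusted p of 0.231, the smallest of any member at any time.

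Whether the difference changed over the day was tested with the interaction of treatment and time. No member and none of the 10097 genes passed (0%). At an unadjusted p under 0.05 there were 0 members and 307 genes. The smallest unadjusted values among members were 0.0648 for Cox4i1, 0.193 for Atp5d and 0.209 for Cox8a, with adjusted p of 0.9999. Cox4i1 was 415 CPM under sh-Ctl and 362 under sh-Acsf3 at ZT0, and 307 and 401 at ZT12.

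The third comparison concerned the daily rhythm of the subunits, fitted as a cosine with a period of 24 h. In sh-Ctl 10 of 37 members passed, against 19.4% of all tested genes, and in sh-Acsf3 6 of 37 passed, against 19.6%. The 10 were Uqcrh, Uqcrb, Uqcr10 and Cyc1 of complex III, Cycs, Cox5a and Cox6a1 of complex IV, and Atp5d, Atp5g1 and Atp5pb of ATP synthase. The 6 were Uqcrh and Cyc1, Cox5a and Cox7a2, and Atp5a1 and Atp5g1. Of these, Uqcrh, Cyc1, Cox5a and Atp5g1 passed in both treatments. Amplitudes were small, from 0.12 to 0.24 on the log2 scale under sh-Ctl and 0.11 to 0.22 under sh-Acsf3, where the median over all rhythmic genes was 0.32 in each.

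The peaks fell late in the cycle. Of the 37 members, passing or not, 33 under sh-Ctl and 32 under sh-Acsf3 had their fitted peak between ZT18 and ZT24, against 24.6% and 24.9% of all tested genes. Cox7a2l went the other way, with a fitted peak at ZT10.7 in sh-Ctl and ZT13.7 in sh-Acsf3, without passing in either (adjusted p = 0.079 and 0.194). Since the members varied together between libraries, as given further on, their peaks are not separate observations.

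Cox5a was highest at ZT21 and lowest at ZT9 in sh-Ctl. The 4 libraries had 877, 1008, 1127 and 1096 CPM at ZT21 and 787, 854, 848 and 812 at ZT9. In sh-Acsf3 it had 962, 948, 1116 and 863 CPM at ZT21 and 812, 728, 736 and 829.5 at ZT6. The high and low groups did not overlap in either treatment, and these times were picked for their means. The fitted peak was ZT21.2 ± 0.8 h in sh-Ctl (SE; adjusted p = 0.00867) and ZT19.5 ± 1.0 h in sh-Acsf3 (adjusted p = 0.0108), with peak to trough folds of 1.23 in each.

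Uqcrh, the acidic hinge protein that helps complex III hold cytochrome c, had 495, 422, 445 and 436 CPM at ZT18 in sh-Ctl and 379.7, 364, 359 and 328 at ZT15. In sh-Acsf3 it had 405, 473, 400.2 and 414 CPM at ZT21 and 352, 339.5, 320.2 and 329.9 at ZT6. Peaks were at ZT22.1 and ZT20.4, with adjusted p of 0.00855 and 0.0098. Cyc1 had 263, 229, 249 and 251 CPM at ZT18 and 183, 200.3, 195 and 194 at ZT6 in sh-Ctl, with a peak at ZT19.6 (adjusted p = 0.0344). In sh-Acsf3 its peak was at ZT18.3 (adjusted p = 0.0238).

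Atp5g1, a gene for the c-ring that turns in the membrane, had the smallest p of the members in sh-Acsf3. It had 259.8, 316, 302 and 285 CPM at ZT21 in sh-Acsf3 and 177, 182, 162 and 259 at ZT9, with an amplitude of 0.22 ± 0.06, a peak at ZT19.4 and an adjusted p of 0.00491. In sh-Ctl the amplitude was 0.18 ± 0.04, the peak ZT21.9 and the adjusted p 0.0343. Cycs had the largest amplitude of the 10 in sh-Ctl, 0.24 ± 0.06 with a peak at ZT20.9 (adjusted p = 0.0135). It had 46.7, 34.4, 50.5 and 39.4 CPM at ZT18 and 28.7, 23.9, 33.1 and 24.2 at ZT9. In sh-Acsf3 its amplitude was 0.11 ± 0.07 with an adjusted p of 0.396. The other named rhythms were Atp5pb (adjusted p = 0.0247) and Uqcrb (adjusted p = 0.0254) in sh-Ctl, with peaks at ZT22.1 and ZT22.7, and Cox7a2 in sh-Acsf3 (adjusted p = 0.0433), with a peak at ZT20.5.

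**Figure D4:**
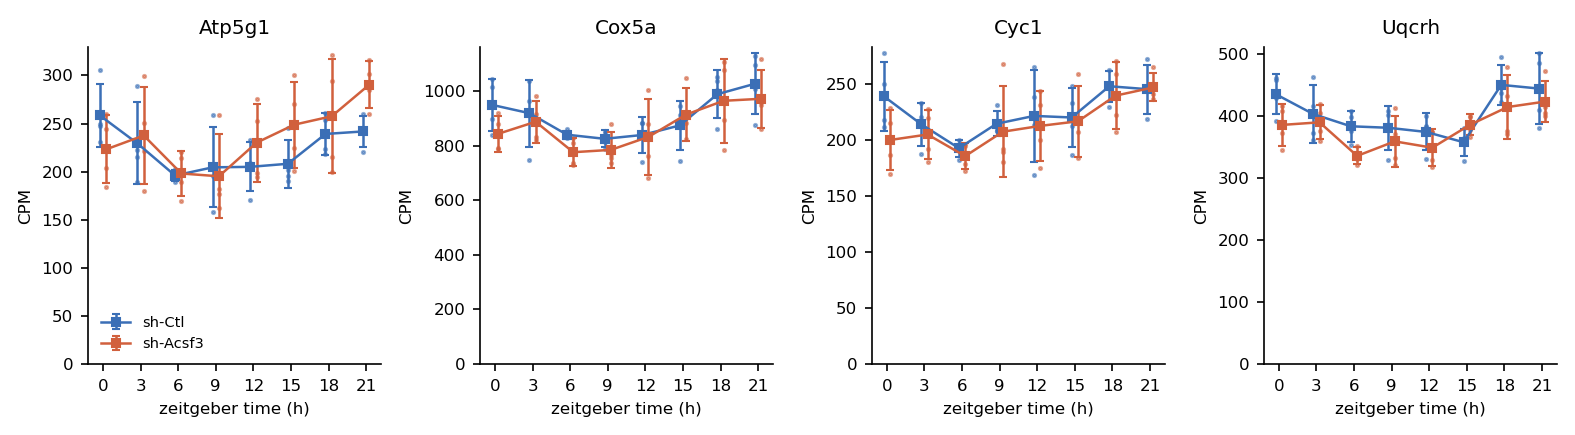
CPM of the 4 members with a 24 h rhythm in both treatments against zeitgeber time in hours, with sh-Ctl in blue and sh-Acsf3 in orange. Small points are libraries, squares and bars the mean and SD of 4 replicates. Means are highest between ZT18 and ZT0 and lowest between ZT6 and ZT15.

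Passing in a single treatment does not show a difference between treatments, and the test of that difference found none. Differential rhythmicity was called for 0 of 37 members and 0% of all genes, with 2 members and 430 genes at an unadjusted p under 0.05. These were Cox4i1, with fitted peaks at ZT0.3 in sh-Ctl and ZT19.2 in sh-Acsf3, and Uqcrc2, with peaks at ZT21.3 and ZT16.1. Their unadjusted edgeR p were 0.0298 and 0.0415, that of Cox6b1 came next at 0.145, and the adjusted p of each member was at least 0.9995. The calls within a treatment changed with the libraries used. Leaving out replicate 1, 2, 3 or 4, which removes 8 of the 32 libraries of a treatment, left 1, 6, 1 and 5 members in sh-Ctl, where the share of all genes called went from 19.4% to 13.2%, 14.7%, 13.4% and 11.2%. In sh-Acsf3 it left 5, 1, 0 and 7 members, with 13.7%, 11.8%, 11.2% and 16.4% of all genes. In sh-Ctl, 4 members passed without the libraries high in Saa1 (Cox5a, Cyc1, Cycs and Uqcr10), with 17.9% of all genes. In sh-Acsf3, 3 passed without the libraries with pancreas RNA (Atp5a1, Atp5g1 and Cox5a), with 14.0% of all genes, and 0 in the 25 libraries whose totals lay within the range of the sh-Ctl totals, with 12.5% of all genes.

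Beyond time and treatment, the members rose and fell together from library to library. With the mean of each of the 16 groups removed, the median Pearson r of log2 CPM over 64 libraries was 0.49 between ATP synthase members, 0.36 within complex III, 0.17 within complex IV and 0.33 between the complexes. Pairs among the 973 tested genes of at least 100 CPM had a median of 0.09. The r values share libraries and their scaling factors and are given as a description, with no p. Of 666 pairs of members, the c-ring gene Atp5g3 and the stalk gene Atp5o had the highest, 0.88 (Spearman 0.88), and the core protein Uqcrc1 with Cox7b the lowest, -0.49 (Spearman -0.49). Cox7b was in each of the 6 lowest pairs.

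A second set of members went with library depth. Within groups, the log2 CPM of 6 of 37 members had an r of -0.5 or lower with the log2 UMI total, against 2.59% of all tested genes. These were Atp5d (r = -0.75, Spearman rho = -0.71), Cox4i1 (-0.74 and -0.75), Atp5g1 (-0.65 and -0.65), Cox6b1 (-0.62 and -0.59), Cox8a (-0.58 and -0.59) and Cox6a1 (-0.51 and -0.51). By a two-sided permutation test within groups over 100000 resamples, adjusted over the 37 members, p for r lay between 0.000123 and 0.00401, and p for rho between 0.000123 and 0.0021. Without the 2 libraries farthest from the median on this axis, the log2 total after removal of its group mean (sh-Acsf3 ZT0 replicate 3 and ZT18 replicate 2), r ran from -0.73 for Cox4i1 to -0.49 for Cox6a1. Within treatments, r was -0.56 in sh-Ctl and -0.81 in sh-Acsf3 for Atp5d, -0.54 and -0.83 for Cox4i1, -0.35 and -0.77 for Atp5g1, and -0.28 and -0.79 for Cox6b1. The 6 members thus read higher in shallow libraries. In sh-Acsf3, depth went in part with replicate number. The replicate 4 libraries held 1.44 (ZT9) to 1.99 (ZT6) M UMIs and those of replicate 2 held 0.839 (ZT21) to 8.01 (ZT6) M. A relation with depth apart from replicate number was not tested. By the same test Atp5a1, Cox5a, Cyc1 and Cox5b also passed, with r from -0.47 to -0.38 (adjusted p for r from 0.0139 to 0.038). Uqcrh passed for rho (-0.38, adjusted p = 0.02) but not for r (-0.33, adjusted p = 0.083). Atp5g1, Cox5a, Cyc1 and Uqcrh are the members rhythmic in both treatments. With the log2 UMI total as a covariate, each of them again passed the rhythm test in both treatments. In that fit 12 members passed in sh-Ctl and 5 in sh-Acsf3, with 20.6% and 20.2% of all genes.

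Depth also differed between the treatments, since sh-Acsf3 libraries had the lower median total. The mean log2 totals were 21.51 in sh-Ctl and 21.28 in sh-Acsf3. Across the 37 members, r with depth and the averaged difference had a Pearson correlation of -0.48, and r with depth and the GC content of the transcript -0.45. These are correlations across genes, which are not independent, and carry no p. The members with differences above 0 that had r of -0.5 or lower were Cox4i1, Atp5g1 and Atp5d. Cox6b1, Cox8a and Cox6a1 also had such an r but lay below 0, at -0.035, -0.034 and -0.021. Atp5l lay above 0 with an r of 0.07. With the UMI total as a covariate, 8 members were again lower, of which 5 were the same (Cox6c, Cox7a2l, Uqcrb, Uqcrc2 and Uqcrfs1), and Atp5d stood at -0.03. In the libraries of shared depth, 32 of sh-Ctl and 25 of sh-Acsf3 between 1.48 and 6.06 M UMIs, 8 members were lower as well, and 5 were the same. Of all genes, 6.12% were lower with the covariate and 6.33% in the libraries of shared depth.

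**Figure D5:**
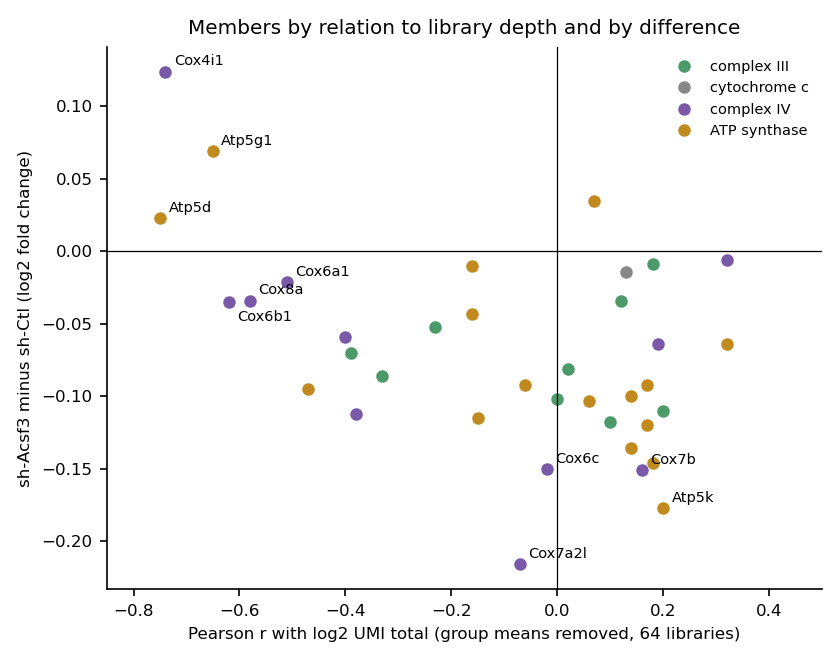
Each of the 37 tested members by its Pearson r between log2 CPM and log2 UMI total over 64 libraries, with group means removed (horizontal), and by its sh-Acsf3 minus sh-Ctl log2 fold change (vertical). Cox4i1, Atp5g1 and Atp5d stand at the upper left, with r from -0.75 to -0.65 and differences from 0.02 to 0.12. Cox6b1, Cox8a and Cox6a1, with r from -0.62 to -0.51, lie just below 0.

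Some 3′ ends are shared with other genes, which bears on the counts because the libraries read transcript ends. Of the 37 tested members, 18 share at least 1 run of 50 bases in the last 500 bases of their transcript with another gene of GENCODE M21. For 17 of the 18 these were 1 to 13 genes, while Atp5g1 shares 15.7% of its runs with 78 genes. The share was over 50% for 3: 75.2% for Atp5l, 60.3% for Atp5h and 57.4% for Atp5o. For Atp5o the other genes are its second row, also named Atp5o, and Gm5436. Atp5l, whose subunit g sits beside subunit e in the membrane, had 1247 UMIs in all, against 38474 for Atp5k. The levels and differences of these 3 are uncertain, as is that of Uqcrb with 46.6%. Among the 8 lower members, Cox7a2l, Cox7b, Uqcrc2 and Uqcrfs1 share none. Cox6c shares 21.3% of its runs with Cox6c2, Atp5c1 shares 6.2% and Atp5k 1.2%.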

How the data were processed

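Transcript ends of 64 liver libraries were counted by the authors as UMIs per gene, in the deposited table of raw counts, without normalization. The labels cite the bulk RNA barcoding method (BRB-seq), and the submitters' processing notes name STAR and GRCm38 (mm10). Versions, the annotation release and strand settings were not given in the sources used here. All columns matched labels by treatment, time and replicate, and no 2 libraries were copies in the 96 pairs of replicates compared. The labels do not say that replicates are separate mice, so p-values measure the spread between these samples, which may be technical.

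Counts were fitted with edgeR 4.0.16 in R 4.3.3 (filterByExpr, minimum count 10 and total 15; TMM; robust quasi-likelihood; 16 group means, 48 residual degrees of freedom). Contrasts were the averaged difference, the difference at each time and the interaction. Rhythms were tested by giving each treatment its own 24 h cosine terms, which leaves 58 residual degrees of freedom. All 10097 tested genes entered the Benjamini-Hochberg adjustment, with a threshold of 0.05. CPM uses TMM-scaled totals. Amplitudes and peaks come from least squares on log2 CPM (prior count 2). The floor of 3 counts covers counting error only. The fits were tested on simulated data.

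Named were all members past the threshold of the averaged difference, the member with the most counts per group, the 5 smallest p for each rhythm, the 3 smallest for differential rhythmicity and for interaction, members below the filter, tissue isoforms and up to 3 genes per context list. Members just outside the threshold and single-time examples were chosen after their values were seen. The members and lists were chosen with earlier results of these data known. Replicate numbers did not pair samples: same-numbered libraries of the treatments had deviations correlating at -0.16 to 0.26 (median 0.02), above 0.1 in 7 of 32 pairs. Alternatives included DESeq2 1.42.0, limma-voom (limma 3.58.1), other scalings and filters, a replicate block, an additive model and leaving out libraries. Leaving out libraries high in Saa1 or with pancreas RNA and the depth covariate were added after seeing the data. Gene positions and transcripts are from GENCODE M21, promoters from RefSeq.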

Additional observations from a re-analysis of the deposited data

Results flagged for a closer look

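In groups of 4 replicates, 192 sets (the summed level of the 3 complexes, the 8 lower members and Cox4i1, in 16 groups each) were searched for a library far from the others by Dixon's 95% criterion (the gap to the nearest library over the range), and 9 met it; chance alone gives about 1 in 20. In sh-Ctl, summed complex IV was 2845 CPM in ZT12 replicate 2, one of the libraries high in Saa1, against 3337 to 3393 in the others. Atp5c1 was 414 CPM in ZT3 replicate 2 (others 568 to 598) and 549 in ZT6 replicate 3 (others 511 to 517). In the same ZT3 replicate 2, Atp5k was 172 CPM (others 215 to 224). Uqcrfs1 was 313 CPM in ZT15 replicate 2, also high in Saa1 (others 339 to 344). In sh-Acsf3, Cox7a2l was 36.0 CPM in ZT12 replicate 4 (others 42.5 to 42.8) and 35.1 in ZT18 replicate 1 (others 47.5 to 48.0). Uqcrc2 was 277 CPM in ZT12 replicate 2, a library with pancreas RNA (others 261 to 264), and Uqcrfs1 was 298 in ZT15 replicate 3 (others 317 to 320.4).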

How the results depend on the processing

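The count of 8 lower members, with 6.22% of all genes lower, changed with the setting. It became 1 on library totals alone (with 1 higher, and 2.48% of all genes lower), 4 without a filter (2.88%) and 3 at a mean CPM of at least 5 (5.24%). It became 4 without libraries with pancreas RNA (4.89%) and 15 without those high in Saa1 (5.84%). It was 8 with RLE size factors (5.86% of all genes lower), without mitochondrially encoded genes (5.98%), in the shared depth range (6.33%) and with the depth covariate (6.12%). It was 10 in the additive model (6.42%), 11 with DESeq2 (5.49%), 12 with limma-voom (5.95%) and 12 with the replicate block (6.73%). Leaving out replicates or single libraries gave 0 to 14. It fell to 5 without sh-Ctl ZT9 replicate 3, sh-Ctl ZT12 replicate 1, sh-Acsf3 ZT3 replicate 1 or sh-Acsf3 ZT12 replicate 1 and to 4 without sh-Acsf3 ZT15 replicate 3. It rose to 13 without sh-Ctl ZT9 replicate 4, ZT12 replicate 2 or ZT18 replicate 2 or sh-Acsf3 ZT0 replicate 3 or ZT12 replicate 3, and to 14 without sh-Ctl ZT3 replicate 2 or ZT15 replicate 1 or sh-Acsf3 ZT3 replicate 4. Of all genes, 250 were lower on library totals and 408 at a mean CPM of at least 5, with 265 to 736 lower and 523 to 939 higher when replicates or libraries were left out. Rhythmic members in sh-Ctl numbered 6 on library totals (17.2% of all genes), 5 without a filter (6.83%) and 3 with 24 h and 12 h cosines (17.5%). They numbered 4 without libraries high in Saa1 (17.9%) and 1 to 6 without single replicates (11.2% to 14.7%). In sh-Acsf3 they numbered 10 with the replicate block (20.6% of all genes), 0 in the shared depth range (12.5%) and 2 with both cosines (17.5%). They numbered 3 without libraries with pancreas RNA (14.0%) and 0 to 7 without single replicates (11.2% to 16.4%). Single times, interaction and differential rhythmicity gave 0 members under every alternative run, the replicate block included, although without a filter on low counts 273 of all genes passed for interaction and 1 for differential rhythmicity. No called difference changed sign. The cause was not tested. Of 32 sh-Ctl libraries 8 correlated best with their own replicate number in sh-Acsf3. Atp5l, with 1247 UMIs in all, had an SE of 0.10 for its averaged log2 difference, and Atp5g3, with 205611, one of 0.04.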
